A study of Homo sapiens with 9 samples.

Results

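The HOX genes were followed in a lung adenocarcinoma cell line of human origin, LC-2/ad, whose driver is a fusion of CCDC6 with RET, and in derivatives of it that resist ponatinib. Members were the rows of the deposited expression table whose symbol, or any part of a symbol joined by commas, was HOXA, HOXB, HOXC or HOXD followed by a number. This gave 31 rows of 24069, and together they named 39 HOX genes, which are all the HOX genes in the RefSeq gene table used here. In 7 rows the authors had combined neighbouring genes, 16 genes in all, into 1 value that cannot be split. HOXA3 stood both in a row of its own and in the row HOXA2,HOXA3, so its level is known only in part.

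The groups were PR2 and PR1, which are LC-2/ad derivatives grown in 200 nM ponatinib, and the parental line, for which the labels state no drug. Ponatinib blocks RET among several other kinases. There were 3 libraries in each group, and letters A to C tell them apart. Resistance and the presence of the drug cannot be told apart in comparisons with parental cells, and the labels do not say whether either derivative is a single clone. Separate cultures are not stated for the letters either, so the spread that the p-values rest on may be that of technical repeats. In bulk RNA of this kind, fewer cells that express a gene and less RNA per cell cannot be told apart.

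HOX genes encode homeodomain transcription factors that give cells their position along the body axis. They lie in 4 clusters, on chromosomes 7 (HOXA), 17 (HOXB), 12 (HOXC) and 2 (HOXD), and their numbers follow their order along the DNA. Low numbers are used towards the head and respond early to retinoic acid, high numbers are used towards the tail and in limbs and the urogenital tract. Polycomb complexes keep clusters silent through methylation of histone H3, and trithorax proteins such as KMT2A oppose them. Genes of the HOXA and HOXB clusters are active in the developing lung, and Hoxa5 is needed for normal lung development in the mouse.

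Values are taken as FPKM, which relate fragments to the length of the transcript and to all mapped fragments. Levels may be compared between genes and libraries only roughly, since summed FPKM differed between libraries and combined rows pool several genes. Libraries held 11263 to 11629 rows at 1 FPKM or more, and their depth relative to parental A was 0.777 to 1. A principal component with 12.6% of the variance set A libraries apart from B libraries in each group, so counts are also given without the 3 A libraries. The line's lung markers were kept in part. NKX2-1, the transcription factor of lung epithelium, stood at 51.9 FPKM or more in every library and the epithelial surface gene EPCAM at 286 FPKM or more. NKX2-1 rose in PR1 (log2 fold change 0.90, limma adjusted p = 0.019) and was lower in PR2 than in PR1 (-0.74, limma adjusted p = 0.038). NAPSA also rose in PR1 (1.85, limma adjusted p = 0.0094), to 46.1 ± 5.98 FPKM from 12.3 ± 3.56 in parental cells. KRT7 rose in PR2 (1.14, limma adjusted p = 0.0056). The surfactant gene SFTPB had 0.0207, 0.0352 and 0.0204 FPKM in PR2 and 3.46, 6.01 and 5.0 in PR1, against 54.3, 144 and 40.6 in parental libraries, and fell in both (log2 fold change -6.08 and -3.60, limma adjusted p = 6.6e-06 and 0.00027). SLC34A2, a phosphate transporter of alveolar cells, was at 10.7 ± 4.82 FPKM in PR2, 182 ± 65.5 in PR1 and 138 ± 9.85 in parental cells, and fell in PR2 (log2 fold change -3.66, limma adjusted p = 6.1e-05). The surfactant genes SFTPA1 and SFTPC were at 0.215 FPKM or less in every library. Of 8 lung markers tested, 1 rose and 3 fell in PR2 and 2 rose and 1 fell in PR1 against parental cells, and 1 was higher and 4 were lower in PR2 than in PR1. Over all rows tested, 13.6% were higher and 9.83% lower in PR2 against parental cells. The shares were 7.56% and 7.98% in PR1 against parental cells, and 11% and 8.92% in PR2 against PR1. Of other cell types, 2 of 8 fibroblast markers, 1 of 5 blood markers and 1 of 4 endothelial markers with a row of their own passed the filter described next, and none of these exceeded 10.04 FPKM. The blood marker CD68 stood only in the row CD68,EIF4A1,MPDU1,SENP3, at 270.2 to 546 FPKM, which cannot be split and is left out of the sums. COL1A2, COL3A1, DCN, PDGFRB, THY1, PTPRC, CD3E and HBB were at 0.0648 FPKM or less in every library. The summed fibroblast markers were at 9.97 to 11.3 FPKM in PR2, 6.22 to 8.98 in PR1 and 5.49 to 9.51 in parental libraries, and the blood markers at 0.716 to 1.08, 1.22 to 1.74 and 3.48 to 9.16 FPKM in the same order of groups, and the endothelial markers at 0.628 to 3.55, 2.22 to 7.88 and 2.62 to 3.74 FPKM. The monocyte gene CD14 accounted for nearly all of the blood marker sum and fell in both derivatives (log2 fold change -1.86 and -1.55, limma adjusted p = 0.00070 and 0.0033). The part of these markers in the HOX results was not tested.

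Most HOX RNA came from the HOXA and HOXB clusters. Summed over its rows, HOXA was at 44.8 ± 7.93 FPKM in PR2, 54.1 ± 5.87 in PR1 and 49.3 ± 3.56 in parental cells (SD, n = 3), and HOXB at 44.0 ± 4.81, 45.7 ± 9.85 and 64.8 ± 8.73 FPKM in the same groups. HOXC and HOXD were far lower. HOXC summed to 2.18 ± 0.243 FPKM in PR2, 3.68 ± 0.788 in PR1 and 4.33 ± 0.705 in parental cells. HOXD summed to 1.77 ± 0.185 FPKM in PR2 and 2.07 ± 0.278 in PR1, against 6.34 ± 1.36 in parental cells, so that its share of all HOX FPKM was 1.92% ± 0.237, 2.00% ± 0.491 and 5.05% ± 0.646. The HOXD sums of the derivatives ended at 2.35 FPKM and those of parental libraries began at 5.39 FPKM.

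**Figure D1:**
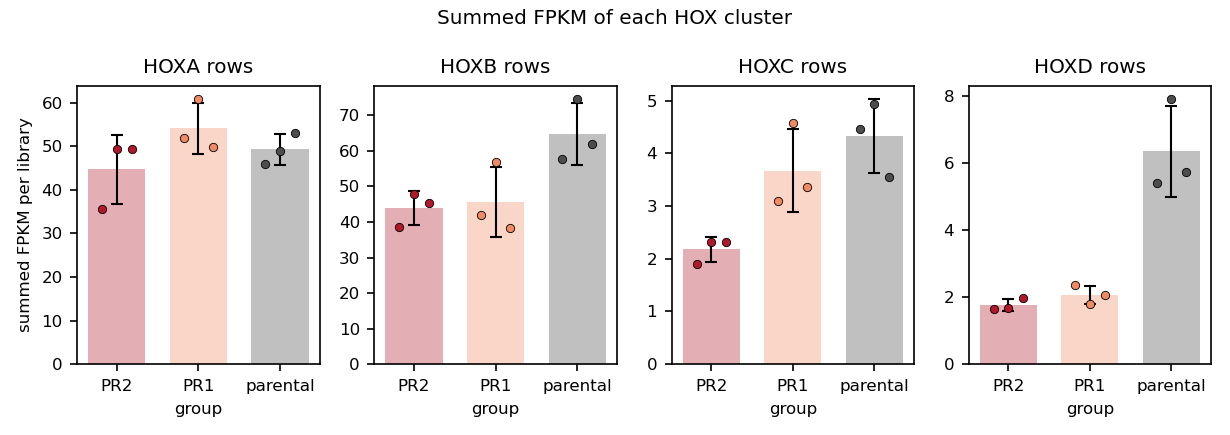
Summed FPKM of the rows of each HOX cluster, with bars for the mean, error bars for the SD over 3 libraries and points for single libraries of PR2, PR1 and parental cells. The HOXD sums of PR2 (1.77 ± 0.185 FPKM) and PR1 (2.07 ± 0.278) lie apart from those of parental cells (6.34 ± 1.36), whereas the HOXA sums of each derivative overlap those of parental cells, and end at 49.4 FPKM in PR2 where those of PR1 begin at 49.7 FPKM.

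The most abundant HOX row in every group was HOXB7, a central gene of the HOXB cluster. It was at 20.8, 24.4 and 25.4 FPKM in PR2, at 21.1, 20.6 and 18.2 in PR1, and at 24.9, 27.1 and 22.0 in parental libraries A, B and C. Every PR1 library was below every parental library and PR2 overlapped both, and HOXB7 passed the test in no comparison (limma adjusted p = 0.79 for PR2 and 0.22 for PR1, each against parental, and 0.31 for PR2 against PR1). The next places in the order of group means were taken by HOXA2,HOXA3 and HOXA10,HOXA9 in PR2, by HOXB5,HOXB6 and HOXA2,HOXA3 in PR1, and by HOXA2,HOXA3 and HOXB5,HOXB6 in parental cells. Within each group the libraries of HOXB7 overlapped those of the row below it. HOXA2,HOXA3, which covers genes of the hindbrain and pharyngeal arches, had 13.4, 22.1 and 23.1 FPKM in PR2, 17.5, 18.4 and 15.0 in PR1, and 23.2, 20.9 and 27.4 in parental libraries. PR1 lay below all parental libraries and PR2 spread across both. The row passed in no comparison (adjusted p = 0.34, 0.17 and 0.64 for PR2 against parental, PR1 against parental and PR2 against PR1), nor did the separate HOXA3 row, at 2.14 to 5.01 FPKM in PR2, 3.74 to 7.77 in PR1 and 4.21 to 6.36 in parental libraries (adjusted p = 0.40, 0.91 and 0.33).

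In all, 14 of the 31 rows reached 1 FPKM in at least 3 libraries and entered the test: 6 of 9 HOXA rows, 5 of 8 HOXB rows, 1 of 6 HOXC rows and 2 of 8 HOXD rows. The other 17 rows stayed under 1 FPKM in all libraries, with a highest value of 0.745 FPKM. Of the 14 rows tested, 11 were at 1 FPKM or more in all 9 libraries. HOXD1 and HOXB13 passed through parental libraries alone, so a difference was built into their entry to the test. HOXA4 passed through the PR1 libraries and parental B, with no PR2 library at 1 FPKM.

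**Figure D2:**
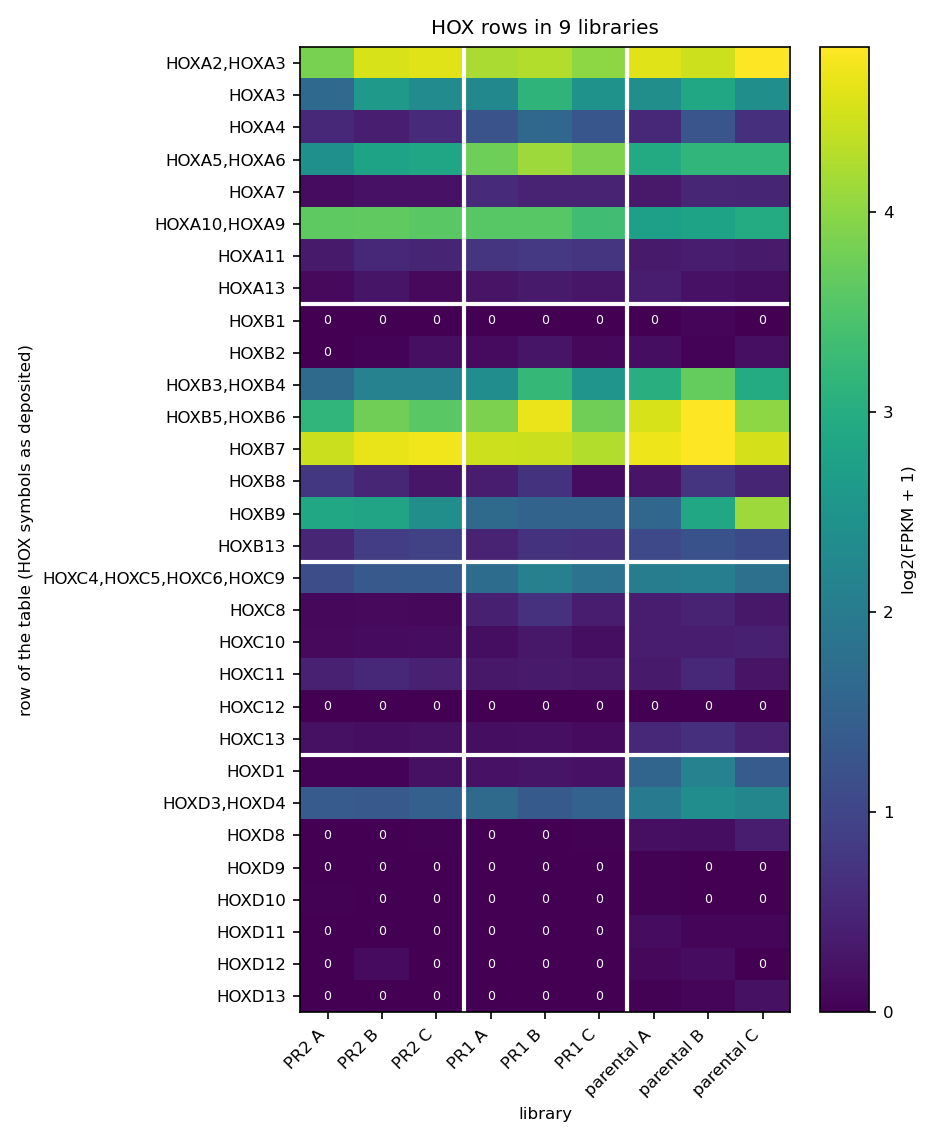
Level of HOX rows, as log2(FPKM + 1), in the 9 libraries of PR2, PR1 and parental cells, ordered by cluster (white lines) and by position along it, with 0 marking a value listed at 0. HOXA and HOXB rows up to number 9 or 10 carry nearly all of the signal, and in the HOXD cluster only HOXD1 and HOXD3,HOXD4 reach 1 FPKM, HOXD1 in parental libraries alone.

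Against parental cells, PR2 had 1 HOX row higher and 6 lower of 14, at an adjusted p under 0.05 in limma's test on log2(FPKM + 1). Over all 12011 rows tested, 23.4% passed, 13.6% higher and 9.83% lower. Among the 11 HOX rows at 1 FPKM or more everywhere, the count was 1 higher and 5 lower. The median log2 fold change of the 14 HOX rows was -0.39, against 0.030 over all rows. With FPKM rescaled to the same sum in each library, the median over all rows stood at 0.17, a shift of 0.14, and the share of higher rows among those that passed moved to 71.2%, against 58.0% without it. The HOX median stood 0.42 below the median of all rows, and 0.43 below it after rescaling. After rescaling 5 HOX rows passed, 1 higher and 4 lower, where 23.3% of all rows did. In 8 HOX rows every PR2 library was below every parental library, and in 1 row every PR2 library was above, against 17.6% and 22.3% of all rows (39.9% in either direction). Without the 3 A libraries 5 HOX rows passed, where 28.2% of all rows did.

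PR1 against parental cells gave 2 HOX rows higher and 3 lower of 14, where 15.5% of all rows passed, 7.56% higher and 7.98% lower. Among the 11 rows at 1 FPKM or more everywhere, 2 were higher and 1 was lower. The median log2 fold change of the HOX rows was -0.32, against 0.047 over all rows. Groups did not overlap in 6 rows with lower and 2 with higher PR1 values, against 15% and 16.6% of all rows (31.6% in either direction). Libraries with the same letter deviated together in this comparison, and with the letter as a block in limma's fit the count was 7 rows, with HOXA4 and HOXB3,HOXB4 added, where 25.7% of all rows passed. Without the 3 A libraries the count was 6, where 20.1% of all rows passed.

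PR2 against PR1 gave 3 HOX rows, all lower in PR2, where 19.9% of all rows passed, 11% higher and 8.92% lower. The HOX median was -0.17, against 0.0038 over all rows. Among all rows that passed, 55.3% were higher in PR2, and 66.5% after rescaling to the same sum. Groups did not overlap in 7 HOX rows with lower and 2 with higher PR2 values, against 18.2% and 20.4% of all rows (38.7% in either direction). With the letter as a block the count of HOX rows was 5, where 31.5% of all rows passed, and without the 3 A libraries it was 3, where 19.8% did. The comparisons share groups, so their counts are not independent of each other.

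**Figure D3:**
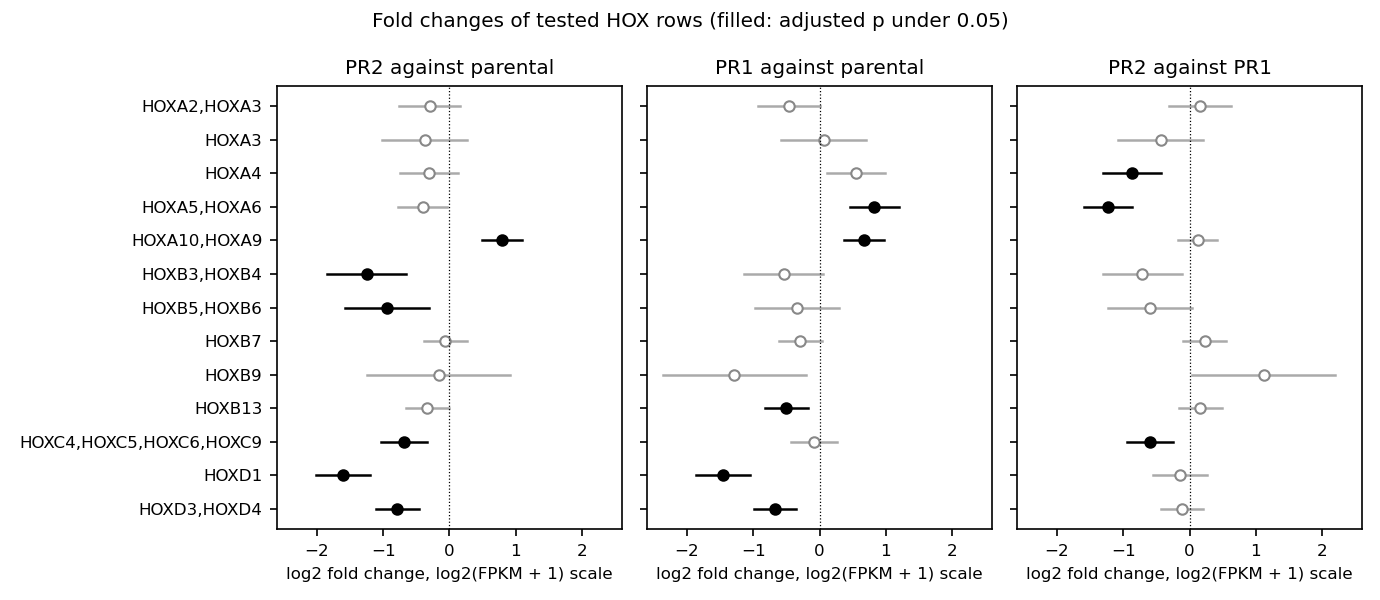
Log2 fold change of tested HOX rows, on the log2(FPKM + 1) scale, with 95% confidence intervals from limma, for PR2 against parental, PR1 against parental and PR2 against PR1; filled points have an adjusted p under 0.05. HOXD1 (-1.60 and -1.46) and HOXD3,HOXD4 (-0.79 and -0.67) are lower and HOXA10,HOXA9 (0.79 and 0.67) is higher in both derivatives, and HOXA5,HOXA6 is higher in PR1 alone among the comparisons with parental cells.

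Both tested HOXD rows fell in both derivatives. HOXD1, the head end of the cluster, had 0.0265, 0.0320 and 0.155 FPKM in PR2 and 0.174, 0.204 and 0.172 in PR1, against 1.99, 3.43 and 1.60 in parental libraries. Every library of both derivatives was far below every parental library, and PR2 was below PR1. The log2 fold change on the log2(FPKM + 1) scale was -1.60 ± 0.18 (SE) in PR2 and -1.46 ± 0.18 in PR1 (limma adjusted p = 0.00023 and 0.00076), a scale that understates the change of such low values. HOXD1 did not pass between the derivatives (-0.15, adjusted p = 0.63, 95% interval from -0.56 to 0.26).

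The row HOXD3,HOXD4, which joins neighbouring genes that shape the cervical spine in the mouse, had 1.60, 1.54 and 1.80 FPKM in PR2 and 2.18, 1.59 and 1.87 in PR1, against 2.99, 4.12 and 3.64 in parental libraries. The derivatives overlapped each other and lay below all parental libraries. Its log2 fold change was -0.79 ± 0.14 in PR2 and -0.67 ± 0.14 in PR1 (limma adjusted p = 0.0034 and 0.012), and -0.12 between PR2 and PR1 (adjusted p = 0.62, 95% interval from -0.44 to 0.20). Both HOXD rows passed in both comparisons with parental cells whichever of the 9 libraries was left out, with the rows tested unchanged. HOXD1 had entered the test through parental libraries alone, so for it a difference was built in.

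Along the rest of the cluster, HOXD values were near 0 in every group. HOXD8 was listed at 0 in 2 PR2 libraries and at 0.0214 FPKM in the other, listed at 0 in 2 PR1 libraries and at 0.0135 FPKM in the other, and at 0.147, 0.128 and 0.285 FPKM in parental libraries. Over HOXD9 to HOXD13, the limb and tail end, 2 of 15 values were above 0 in PR2 and 0 of 15 in PR1, against 10 of 15 in parental cells, where the highest was 0.168 FPKM. All parental libraries had a value for HOXD11 and HOXD13 and no derivative library had one. BRD2, FLOT1 and TUBB, which nearly every cell uses, were listed at 0 in all 9 libraries, so a value of 0 can be a failed estimate in some rows. HOXD8, HOXD11 and HOXD13 differ from these in having a value in every parental library. Whether zeros of the HOXD rows are failed estimates was not tested, and no fold is given against them.

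Non-coding genes of the same cluster are shown with it. HAGLR, a long non-coding RNA gene between HOXD3 and HOXD1, had 0.234, 0.344 and 0.201 FPKM in PR2 and 0.608, 1.55 and 0.681 in PR1, against 3.12, 6.03 and 3.78 in parental libraries. The groups did not overlap, and the fold change was -2.04 ± 0.23 in PR2 and -1.44 ± 0.23 in PR1 on the log2 scale (limma adjusted p = 0.00020 and 0.0025). HAGLR reached 1 FPKM in the parental libraries and PR1 B and in no PR2 library, so part of these differences was built into its entry to the test. HOXD-AS2, an antisense gene near HOXD8, was listed at 0 in all PR2 libraries, at 0, 0.162 and 0 FPKM in PR1, and at 0.610, 1.19 and 2.52 in parental libraries. It reached 1 FPKM in too few libraries to be tested. Whether fragments were assigned by strand is not given in the sources used here, so RNA of a gene and of an overlapping antisense gene cannot be told apart.

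**Figure D4:**
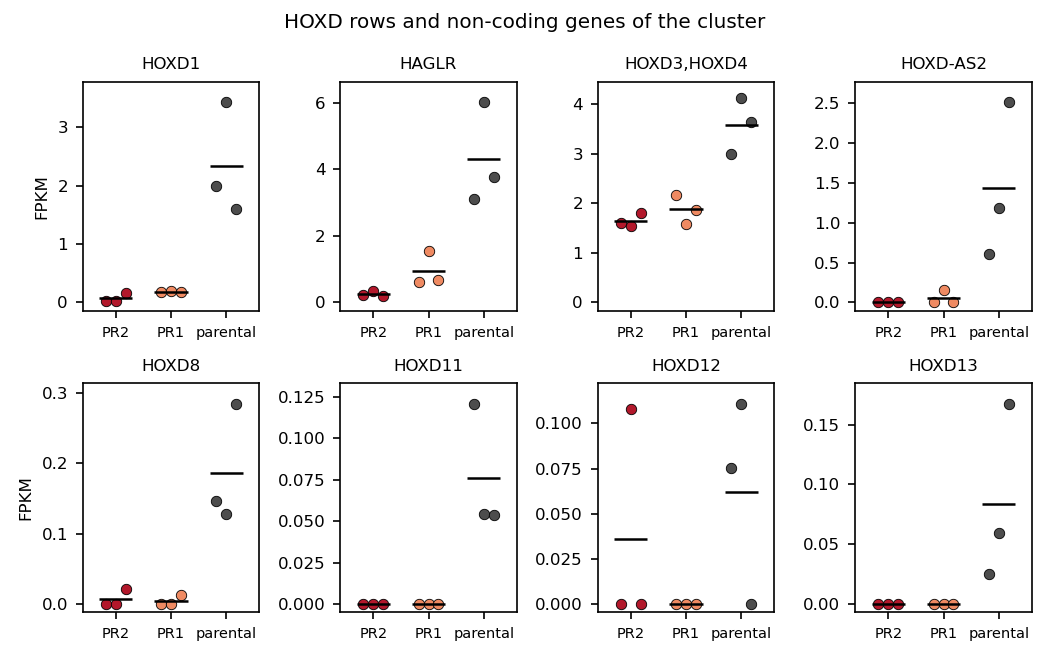
FPKM of HOXD rows and of the non-coding genes HAGLR and HOXD-AS2 in single libraries (points) with the group mean (line), each panel on its own linear axis. Parental libraries lie above all PR2 and PR1 libraries in 7 of the panels. Of these, HOXD8, HOXD11, HOXD13 and HOXD-AS2 were too low to be tested. Over all rows tested, 17.6% lay below all parental libraries in PR2 and 15% in PR1, each derivative taken alone. HOXD12, where 1 parental library was listed at 0, overlaps, as do HOXD9 and HOXD10, which are not drawn.

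The sequences upstream of the HOX genes that moved alike in both derivatives are given as context for HOXD1, HOXD3, HOXD4, HOXA9 and HOXA10. RefSeq's table for GRCh38.p14 held 27 entries for 20 of the HOX genes among 35116 in all; the submitters' processing notes name GRCh37, so these coordinates belong to the sequences alone. Each run holds the 250 bases before a transcript start, 5′ to 3′ on the gene's strand, with CG pairs in capitals.
HOXD1 (chr2:176188418-176188667, plus strand): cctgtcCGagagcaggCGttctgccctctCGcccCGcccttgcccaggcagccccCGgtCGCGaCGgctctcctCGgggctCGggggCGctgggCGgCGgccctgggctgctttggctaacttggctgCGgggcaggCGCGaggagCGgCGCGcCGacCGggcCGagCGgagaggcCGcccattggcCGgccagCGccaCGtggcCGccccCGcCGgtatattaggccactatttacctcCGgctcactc
HOXD3 (chr2:176157057-176157306, plus strand): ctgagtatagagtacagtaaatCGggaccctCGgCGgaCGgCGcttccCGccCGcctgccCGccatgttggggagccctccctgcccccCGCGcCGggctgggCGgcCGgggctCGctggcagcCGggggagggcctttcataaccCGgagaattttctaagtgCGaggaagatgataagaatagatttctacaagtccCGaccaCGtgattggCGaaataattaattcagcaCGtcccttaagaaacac
HOXD4 (chr2:176151300-176151549, plus strand): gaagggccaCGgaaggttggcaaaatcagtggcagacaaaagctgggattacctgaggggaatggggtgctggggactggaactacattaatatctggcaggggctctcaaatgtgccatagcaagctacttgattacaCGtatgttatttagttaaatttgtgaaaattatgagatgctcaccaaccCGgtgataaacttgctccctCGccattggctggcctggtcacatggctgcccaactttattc
HOXA9 (chr7:27165538-27165787, minus strand): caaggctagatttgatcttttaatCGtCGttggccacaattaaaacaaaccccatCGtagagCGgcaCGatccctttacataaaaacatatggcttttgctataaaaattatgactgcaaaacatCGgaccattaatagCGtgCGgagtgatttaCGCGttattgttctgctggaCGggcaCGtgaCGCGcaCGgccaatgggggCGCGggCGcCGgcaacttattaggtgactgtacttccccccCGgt
HOXA10 (chr7:27179862-27180111, minus strand): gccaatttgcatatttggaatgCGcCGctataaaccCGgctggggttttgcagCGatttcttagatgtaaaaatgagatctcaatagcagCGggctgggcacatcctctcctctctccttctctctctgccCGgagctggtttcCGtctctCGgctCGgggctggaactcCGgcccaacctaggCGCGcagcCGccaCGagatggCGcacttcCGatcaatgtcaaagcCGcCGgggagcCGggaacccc
HOXA10, the other entry (chr7:27174321-27174570, minus strand): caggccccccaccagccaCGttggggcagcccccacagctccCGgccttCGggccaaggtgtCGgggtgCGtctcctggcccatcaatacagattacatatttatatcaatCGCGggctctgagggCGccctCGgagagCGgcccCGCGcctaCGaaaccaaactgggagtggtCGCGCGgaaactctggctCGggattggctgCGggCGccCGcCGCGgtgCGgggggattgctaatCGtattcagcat
HOXD1 had 31 CG pairs in this window, which 10.9% of all entries reached. HOXD3 had 21, and HOXD4, in the same row of the expression table, had 4, which 70.7% of all entries reached. HOXA9 had 20 and the HOXA10 entries had 19 and 24. The median was 19 over the HOX entries and 11 over all entries. The TATA motif TATAAA, searched on both strands, was found at -150 before the HOXA9 start and at -222 and -150 before the HOXA10 starts, and not before HOXD1, HOXD3 or HOXD4 in this window. It was in 5 of the 27 HOX entries and in 10.7% of all entries. TGATNNAT, a site that HOX and PBX proteins can bind together, was in 3 HOX entries and 6.47% of all entries, and none of the printed windows held it. The direct repeat that retinoic acid receptors bind, with its spacer of the classical length, was in 0 HOX entries and 0.0655% of all entries.

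The row HOXA10,HOXA9 was the HOX row that rose in both derivatives. HOXA9 and HOXA10 sit at the trunk end of the HOXA cluster and are best known from blood stem cells, leukaemia and the uterus. It had 11.4, 11.5 and 11.0 FPKM in PR2 and 10.9, 10.9 and 9.22 in PR1, against 5.60, 5.97 and 6.80 in parental libraries. All derivative libraries were above all parental libraries. PR2 lay just above PR1, and that difference did not pass (0.12 on the log2 scale, adjusted p = 0.58). The log2 fold change was 0.79 ± 0.13 in PR2 and 0.67 ± 0.13 in PR1 (limma adjusted p = 0.0023 and 0.0087), and it passed without any single library. The tail-end genes HOXA11 and HOXA13 beside it were below 1 FPKM in every library.

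The centre of the HOXA cluster set the derivatives apart. HOXA5,HOXA6, which includes the gene needed for lung development in the mouse, had 4.39, 5.99 and 6.23 FPKM in PR2, 12.6, 16.4 and 13.8 in PR1, and 6.77, 8.01 and 8.03 in parental libraries. All PR1 libraries were above all others, and all PR2 libraries were below all parental libraries. The row rose in PR1 by 0.83 ± 0.17 on the log2 scale (limma adjusted p = 0.0086). PR2 was at -0.41 against parental cells (adjusted p = 0.11) and at -1.23 ± 0.17 against PR1 (limma adjusted p = 0.00083).

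HOXA4, its neighbour and a gene of the cervical spine in the mouse, was at 0.454, 0.326 and 0.487 FPKM in PR2, 1.34, 2.06 and 1.44 in PR1, and 0.444, 1.40 and 0.585 in parental libraries. PR1 was above PR2 in every library, and parental B lay among the PR1 values. HOXA4 was lower in PR2 than in PR1, with a log2 fold change of -0.87 ± 0.20 (limma adjusted p = 0.012). For PR1 against parental cells the difference was 0.56, with an adjusted p of 0.086, which became 0.046 with the letter as a block. Leaving out parental B brought it to 0.020. Summed over HOXA4 to HOXA7, the centre of the cluster was at 6.12 ± 1.03 FPKM in PR2, 16.3 ± 2.28 in PR1 and 8.78 ± 1.21 in parental cells.

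**Figure D5:**
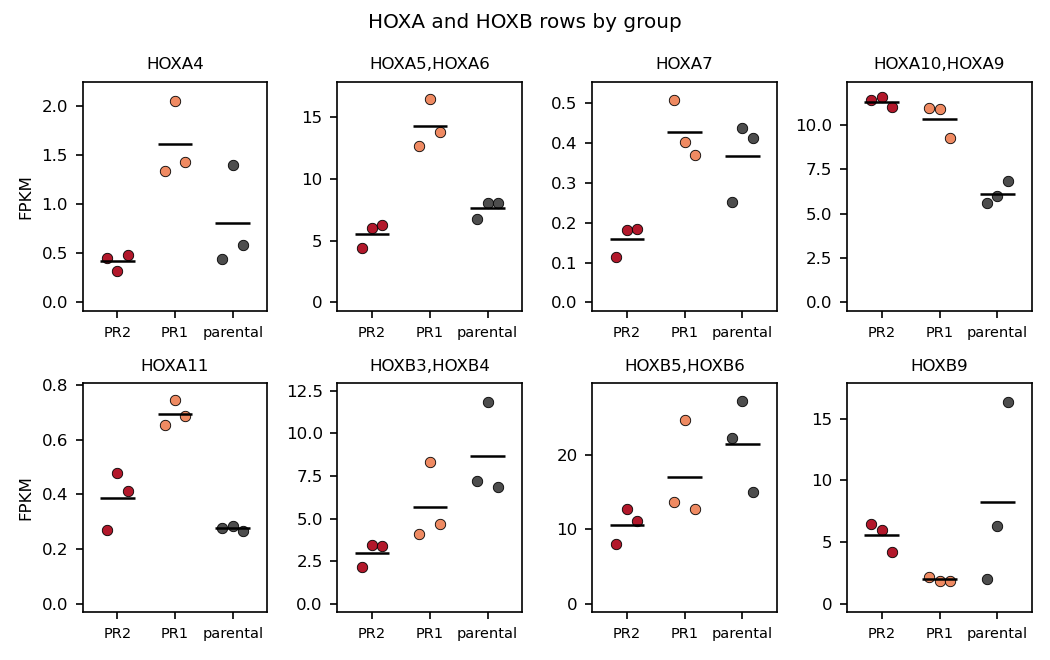
FPKM of HOXA and HOXB rows in single libraries (points) with the group mean (line), each panel on its own linear axis from 0. HOXA10,HOXA9 is higher in both derivatives, HOXA4, HOXA5,HOXA6 and HOXA11 are highest in PR1, and HOXB3,HOXB4 has a mean of 3.0 FPKM in PR2, 5.71 in PR1 and 8.65 in parental cells.

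In the HOXB cluster, HOXB3,HOXB4 and HOXB5,HOXB6 were lower in PR2 than in parental cells. HOXB3,HOXB4, genes of the hindbrain that also act in blood stem cells, had 2.17, 3.43 and 3.40 FPKM in PR2, 4.12, 8.29 and 4.70 in PR1, and 7.23, 11.8 and 6.86 in parental libraries. PR2 lay below all other libraries, and PR1 B lay among the parental values. The log2 fold change was -1.25 ± 0.27 in PR2 (limma adjusted p = 0.0080), without any single library between -1.38 and -1.03. In PR1 it was -0.54 (adjusted p = 0.21, and 0.039 with the letter as a block), and between PR2 and PR1 it was -0.71 (adjusted p = 0.090, and 0.011 with the letter as a block).

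HOXB5,HOXB6, central genes active in the developing lung, had 8.03, 12.7 and 11.1 FPKM in PR2, 13.7, 24.6 and 12.8 in PR1, and 22.3, 27.3 and 15.0 in parental libraries. All PR2 libraries were below all parental ones, and PR1 lay just above PR2 and overlapped the parental values. The change in PR2 was -0.94 ± 0.29 on the log2 scale (limma adjusted p = 0.039). It missed the threshold without PR2 A, PR2 C, parental A or parental B (highest adjusted p = 0.14), without the 3 A libraries (0.17), after rescaling (0.067) and with no filter on low values (0.068). In PR1 the difference was -0.34 (adjusted p = 0.47), and between PR2 and PR1 it was -0.60 (adjusted p = 0.17, and 0.042 with the letter as a block).

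HOXB9, which patterns the rib cage in the mouse, had the largest SD of any HOX row within a group, 7.33 FPKM in parental cells. It had 6.47, 6.02 and 4.21 FPKM in PR2 and 2.18, 1.88 and 1.90 in PR1, against 2.03, 6.33 and 16.3 in parental libraries. PR2 was above PR1 in every library, and the parental libraries spread over the whole range. It passed in no comparison with all libraries (adjusted p = 0.84, 0.10 and 0.13 for PR2 against parental, PR1 against parental and PR2 against PR1). Without parental A, the adjusted p was 0.0048 for PR1 against parental (log2 fold change -1.92) and 0.025 for PR2 against PR1. PR2 against PR1 also passed without parental C (adjusted p = 0.029) and in a fit of PR2 and PR1 alone (log2 fold change 1.12, adjusted p = 0.0046).

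HOXB13, the tail end of the cluster and a gene of the prostate and hindgut, had 0.436, 0.826 and 0.933 FPKM in PR2 and 0.400, 0.635 and 0.578 in PR1, against 1.09, 1.32 and 1.11 in parental libraries. All derivative libraries were below all parental ones. The change was -0.34 in PR2 (adjusted p = 0.12) and -0.50 ± 0.15 in PR1 (limma adjusted p = 0.043). Leaving out any one library except PR2 A ended the call in PR1 (highest adjusted p = 0.14), as did rescaling to the same sum (0.068), a pseudocount of 0.1 (0.050) and a fit with no trend (0.051).

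The single tested HOXC row, HOXC4,HOXC5,HOXC6,HOXC9, joins 4 genes along the cluster that act in the neck and trunk of the mouse. It had 1.2, 1.55 and 1.59 FPKM in PR2, 2.25, 3.29 and 2.6 in PR1, and 3.13, 3.23 and 2.43 in parental libraries. PR2 was below all other libraries, and PR1 overlapped the parental libraries. The log2 fold change was -0.68 ± 0.16 against parental cells (limma adjusted p = 0.011) and -0.60 ± 0.16 against PR1 (limma adjusted p = 0.023). The second of these missed the threshold without PR2 A, PR2 B, PR2 C, PR1 B or PR1 C (highest adjusted p = 0.087) and after rescaling (0.055). PR1 against parental cells was at -0.09 (adjusted p = 0.76).

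The 17 rows below 1 FPKM were read with a pseudocount of 0.1 and a filter at 0.1 FPKM, a setting and a choice of genes made with their values known. Among all their values, 22 of 51 were at 0 in PR2 and 23 in PR1, against 10 in parental cells. The test took in 10 of the rows, of which HOXD8 entered through parental libraries alone. In PR2 against parental cells 5 of the 10 were lower (HOXD8, HOXC8, HOXC13, HOXC10 and HOXA7) and 0 were higher, where 24.3% of all 14710 rows passed, 12.8% higher and 11.6% lower. In PR1 against parental cells 2 were lower and 1 was higher, where 16.9% of all rows passed, 7.19% higher and 9.72% lower. In PR2 against PR1 2 were lower and 0 were higher, where 19.8% of all rows passed, 11.1% higher and 8.68% lower. HOXC8, a gene of the trunk in the mouse, was at 0.0811, 0.0830 and 0.0805 FPKM in PR2, 0.340, 0.618 and 0.302 in PR1, and 0.313, 0.374 and 0.243 in parental libraries. It fell in PR2 against both parental cells (log2 fold change -1.16, limma adjusted p = 0.012) and PR1 (-1.47, adjusted p = 0.0049). No PR2 library reached 0.1 FPKM for HOXC8, so part of these differences was built into its entry to the test.

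HOXA7, next to HOXA5,HOXA6, had 0.113, 0.183 and 0.184 FPKM in PR2, 0.508, 0.402 and 0.371 in PR1, and 0.253, 0.437 and 0.413 in parental libraries. It was lower in PR2 than in PR1 (log2 fold change -1.02, limma adjusted p = 0.021), the same direction as HOXA4 and HOXA5,HOXA6. HOXA11 was at 0.271, 0.479 and 0.412 FPKM in PR2, 0.654, 0.745 and 0.685 in PR1, and 0.277, 0.285 and 0.267 in parental libraries. It rose in PR1 (log2 fold change 1.08, limma adjusted p = 0.011), and PR1 was above every other library. HOXC13, a gene of hair and nails, was at 0.166, 0.131 and 0.164 FPKM in PR2 and 0.128, 0.150 and 0.0989 in PR1, against 0.457, 0.580 and 0.352 in parental libraries, and fell in both (-1.13 and -1.31, limma adjusted p = 0.0075 and 0.0051). HOXC10, a limb and lumbar gene, had 0.0843, 0.101 and 0.111 FPKM in PR2 and 0.125, 0.248 and 0.125 in PR1, against 0.297, 0.30 and 0.344 in parental libraries, and fell in PR2 (-1.06, adjusted p = 0.012). HOXB8 overlapped between all groups, at 0.231 to 0.715 FPKM in PR2, 0.116 to 0.625 in PR1 and 0.188 to 0.652 in parental libraries, and HOXC12 was listed at 0 throughout.

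The proteins that act with HOX factors were compared next. Of 9 TALE homeobox genes, which encode the DNA-binding partners of HOX proteins, 5 were tested, and 0 passed in any comparison by limma's adjusted p; PBX3, PBX4, MEIS2 and PKNOX1 lay between 0.565 and 8.64 FPKM. The adjusted p was 0.11 for PBX4 in PR1 against parental cells and 0.16 for PKNOX1 between PR2 and PR1. MEIS1 lay between 0.521 and 1.06 FPKM and PBX2 was listed at 0 in all libraries. At an unadjusted p under 0.05, 1 of the 15 tests passed, that of PBX4 in PR1 against parental cells.

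Regulators of the clusters followed. Of 27 Polycomb genes tested in a row of their own, 1 rose and 0 fell in PR2 against parental cells, 0 rose and 4 fell in PR1, and 4 were higher and 1, PHC2, was lower in PR2 than in PR1. Over all rows, 13.6% were higher and 9.83% lower in PR2 against parental cells, 7.56% and 7.98% in PR1, and 11% and 8.92% in PR2 against PR1. CBX2, a reader of methylated histone H3, had 9.08, 9.75 and 9.34 FPKM in PR2, 4.36, 3.54 and 4.69 in PR1, and 8.58, 8.52 and 9.09 in parental libraries. It was lower in PR1 than in both other groups (log2 fold change -0.91 against parental, limma adjusted p = 0.0018, and 1.01 for PR2 against PR1, 0.00081). EZH1, a histone H3 methyltransferase, was at 10.3 ± 0.746 FPKM in PR2, 5.20 ± 0.445 in PR1 and 5.72 ± 0.387 in parental cells, and rose in PR2 (log2 fold change 0.75, limma adjusted p = 0.0027). EZH2, its main counterpart in dividing cells, passed in no comparison (adjusted p = 0.50, 0.69 and 0.86 for PR2 and PR1 against parental and PR2 against PR1). BMI1 is outside this count, since it was read only in the row BMI1,COMMD3,COMMD3-BMI1, which was lower in PR2 than in PR1 (-0.55, limma adjusted p = 0.047). Of 15 trithorax and histone demethylase genes with a row of their own, 1 rose and 1 fell in PR2 and 1 fell in PR1 against parental cells, and 1 was lower in PR2 than in PR1. The one that fell in both was KDM6A, which removes methyl groups from histone H3, at 3.60 ± 0.562 FPKM in PR2 and 3.51 ± 0.667 in PR1, against 7.56 ± 1.42 in parental cells (log2 fold change -0.89 and -0.92, limma adjusted p = 0.0054 and 0.0069). The row KMT2A,TMEM25,TTC36 passed in no comparison (adjusted p = 0.81, 0.72 and 0.51).

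Genes of retinoic acid signalling, the pathway that induces HOX genes of low number, are given last. Of 13 tested, 6 fell and 0 rose in PR2 and 5 fell and 0 rose in PR1 against parental cells, and 1 was higher and 3 were lower in PR2 than in PR1. Over all rows, 13.6% were higher and 9.83% lower in PR2 against parental cells. The shares were 7.56% and 7.98% in PR1 against parental cells, and 11% and 8.92% in PR2 against PR1. STRA6, a retinol transporter, was at 0.0957, 1.02 and 0.582 FPKM in PR2 and 0.884, 2.40 and 1.39 in PR1, against 8.28, 19.3 and 21.8 in parental libraries (log2 fold change -3.42 and -2.71, limma adjusted p = 0.00013 and 0.0010). RDH10, which starts the synthesis of retinoic acid, was at 6.27 ± 0.779 FPKM in PR2, 28.4 ± 11.0 in PR1 and 70.0 ± 6.55 in parental cells (log2 fold change -3.29 and -1.35, limma adjusted p = 2.9e-05 and 0.0079). RARB, a receptor gene that retinoic acid itself induces, was at 0.0676, 0.335 and 0.366 FPKM in PR2 and 0.776, 1.36 and 0.962 in PR1, against 2.08, 2.55 and 2.29 in parental libraries (-1.40 and -0.71, limma adjusted p = 0.00019 and 0.013). For STRA6, RDH10 and RARB, every derivative library was below every parental library, against 17.6% of all rows in PR2 and 15% in PR1. These genes were named from those that fell, and other genes of the list overlapped parental libraries in both comparisons. Whether genes of this pathway bear on the HOX values was not tested.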

How the data were processed

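The authors deposited 1 table with a value for each of 24069 rows in 9 libraries, and per the submitters' processing notes TopHat2 2.0.14, Cufflinks 2.2.1 and Cuffdiff 2.2.1 were used with the builds GRCh37 and hg19. The deposited values were taken as FPKM, an inference, since the header names no unit: Cufflinks reports FPKM and column sums lay between 571570 and 686460. Annotation, strand setting and read numbers are not given in the sources used, so absolute depth is unknown; steps of single fragments in low genes gave the relative depth. RNA came from a column kit and a TruSeq library kit, per the labels' protocols.

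The test took in 12011 rows, those with at least 1 FPKM in 3 libraries or more, and ran on log2(FPKM + 1) with limma 3.58.1 in R 4.3.3, with 1 mean per group over all 9 libraries and an intensity trend. Tests were two-sided, with Benjamini-Hochberg adjustment over all rows tested, and the script was tested on simulated data. The members and all gene lists were chosen with earlier results of these data known. HOX rows reaching 1 FPKM were named with every value; other genes were named from 11 lists, up to 3 rows that rose and 3 that fell per list, plus the cofactors and KMT2A, EZH2, BMI1 and CBX2. A few genes covered by this rule are left out of the text and the figures and are not reported here. HOX rows under 1 FPKM, HOXD-AS2, HOTAIR, HOTAIRM1 and HOXB-AS3 were chosen after their values were seen.

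The letters were checked for pairing by correlating deviations from group means across rows between libraries of the same letter. For PR2 with PR1 the correlations for A, B and C were 0.53, 0.54 and 0.25, for PR1 with the parental line 0.31, 0.48 and 0.16, and for PR2 with the parental line 0.30, 0.42 and 0.014. Letters were taken as pairs where all 3 exceeded 0.1, which left out PR2 against parental cells. Alternatives were other pseudocounts, filters and scalings, no trend, only the groups compared, the letter as a block and libraries left out.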

Additional observations from a re-analysis of the deposited data

Results flagged for a closer look

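These results stood out because PR2 and PR1, set against each other directly, differed in HOX rows although both were grown in the same dose of ponatinib. HOXA5,HOXA6 was lower in PR2 than in PR1 (log2 fold change -1.23, limma adjusted p = 0.00083), in all 3 libraries. HOXA4 was lower in PR2 (log2 fold change -0.87, limma adjusted p = 0.012), also with no overlap. It reached 1 FPKM in the PR1 libraries and parental B and in no PR2 library, so part of this difference was built into its entry. HOXC4,HOXC5,HOXC6,HOXC9 was lower in PR2 (log2 fold change -0.60, limma adjusted p = 0.023), again with no overlap, and this call was lost without any one of PR2 A, PR2 B, PR2 C, PR1 B or PR1 C. Their share, 3 of 14, stands beside 19.9% of all rows tested.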

How the results depend on the processing

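The number of HOX rows called followed the number tested. With no filter it was 12 for PR2 and 10 for PR1 against parental cells and 6 for PR2 against PR1, of 30 HOX rows tested, where 19%, 12.5% and 13.8% of all 18691 rows passed. With rows at 5 FPKM or more it was 3, 2 and 1 of 8. All rows called in that setting numbered 1811, 1207 and 1573 of 8947, or 20.2%, 13.5% and 17.6%. With a filter at 0.3 FPKM, 5 of 20 HOX rows passed for PR2 against PR1, where 19.8% of all rows did. The pseudocount of 0.1 with a filter at 0.1 FPKM, added after the data were seen, gave 12, 8 and 5 of 24, where 24.3%, 16.9% and 19.8% of all rows passed. With the letter as a replicate block, all rows called numbered 3088 (25.7%) for PR1 against parental cells and 3789 (31.5%) for PR2 against PR1, and the HOX rows 7 and 5. In PR2 against parental cells, where the letters were not taken as pairs, the block gave 8 HOX rows with HOXA5,HOXA6 added (-0.41, adjusted p = 0.028). Of all rows, 34.2% passed in that fit, against 23.4% without the block. Leaving out each library in turn gave 5 to 7, 4 to 5 and 2 to 4 HOX rows, and 1805 to 2922, 1141 to 2027 and 1420 to 2446 of all rows; PR2 C, PR1 C and PR2 C gave the lowest of these and parental A, PR2 A and parental A the highest. No called HOX row changed sign. Among rows not called, HOXB7 in PR2 against parental was at 0.088 after rescaling to the same sum, 0.030 without the 3 A libraries and between -0.14 and 0.020 without a single library. HOXB9 in PR2 lay between -0.80 and 0.46, and HOXA3 in PR1 between -0.19 and 0.25. HOXC4,HOXC5,HOXC6,HOXC9 in PR1 was at 0.043 without the 3 A libraries and between -0.19 and 0.0049 without a single library. Of 864 alternative values of single HOX rows, 811 kept direction and side of the threshold. The cause of the changes was not tested. Unknown absolute depth limits what can be read from rows under 1 FPKM.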

Other observations

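Genes that flank the HOX clusters were set beside them. Of 23 tested, 3 rose and 0 fell in PR2 and 1 rose and 2 fell in PR1 against parental cells, and 5 were higher and 0 lower in PR2 than in PR1. Over all rows the shares were 13.6% higher and 9.83% lower, 7.56% and 7.98%, and 11% and 8.92% in the same order of comparisons. HIBADH, a mitochondrial enzyme of valine breakdown that lies beyond the HOXA13 end of its cluster, had 54.1, 59.0 and 64.6 FPKM in PR2 and 44.1, 44.2 and 43.5 in PR1, against 31.7, 31.9 and 31.3 in parental libraries. It was higher in all 3 comparisons (log2 fold change 0.88, 0.46 and 0.42 for PR2 and PR1 against parental and PR2 against PR1, limma adjusted p = 0.00090, 0.036 and 0.043). Near the HOXB cluster, NFE2L1, a transcription factor of proteasome genes, had 94.3, 72.0 and 74.9 FPKM in PR2, 37.3, 26.0 and 35.5 in PR1, and 59.2, 46.0 and 71.9 in parental libraries. It fell in PR1 (-0.82, limma adjusted p = 0.026) and was higher in PR2 than in PR1 (1.27, limma adjusted p = 0.0025). UBE2Z, a ubiquitin-conjugating enzyme gene, was at 73.1 ± 4.81 FPKM in PR2, 35.9 ± 4.79 in PR1 and 49.6 ± 6.16 in parental cells (SD, n = 3), and was higher in PR2 than in both other groups (0.55 and 1.01, limma adjusted p = 0.027 and 0.0017).

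Of the 29 non-coding genes of the HOX clusters, 4 rows were tested. In each comparison 1 was lower, where 9.83% (PR2 against parental), 7.98% (PR1 against parental) and 8.92% (PR2 against PR1) of all rows were. HAGLR, which entered the test through the parental libraries and PR1 B, was the one in both comparisons with parental cells. HOXC-AS1,HOXC-AS2 was the one between the derivatives, at 0.519, 0.733 and 0.446 FPKM in PR2 and 1.34, 1.47 and 1.13 in PR1, with 0.547 to 0.900 FPKM in parental libraries (log2 fold change -0.56, limma adjusted p = 0.017). It reached 1 FPKM in PR1 libraries alone, so a difference was built into its entry to the test. HOTAIRM1, at the head end of the HOXA cluster, was at 13.5 ± 3.84 FPKM in PR2, 16.2 ± 5.40 in PR1 and 18.8 ± 4.89 in parental cells, and HOXB-AS3 at 7.59 ± 1.02, 10.1 ± 3.61 and 14.4 ± 5.76 FPKM, with no call for either. HOTAIR, a long non-coding RNA gene in the HOXC cluster, had 0.402, 0.639 and 0.662 FPKM in PR2, 0.136, 0.241 and 0.0442 in PR1, and 0.167, 0.186 and 0.0774 in parental libraries. All PR2 libraries were above all others at levels too low to be tested. Of 6 ParaHox and CDX genes, relatives of the HOX family, CDX2 was the one tested, at 4.77 ± 1.02 FPKM in PR2, 7.01 ± 0.470 in PR1 and 6.0 ± 1.02 in parental cells, and it passed in no comparison (adjusted p = 0.26, 0.47 and 0.071).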
